A study of Xenopus laevis with 5 samples.

Results

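The Ventx genes encode homeobox transcription factors of the ventral side of the frog embryo, and msx1 and msx2 encode homeobox factors that respond to the same signal. Members were chosen by name in the deposited annotation: every gene model whose symbol, without its L or S ending, starts with ventx, and every copy of msx1 and msx2. That gave 11 of 45099 gene models, 7 of them ventx (both copies of ventx1.1, ventx1.2 and ventx3.2, and the S copy of ventx3.1) and 4 msx (both copies of msx1 and msx2). Xenopus laevis is allotetraploid, and L and S mark the copies on its long and short chromosome sets. No model in that annotation carries the name ventx2.1 or ventx2.2, and 4 further models in the same gene clusters have no frog symbol but are matched there to human VENTX. These 4 are described beside the members by their identifiers.

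RNA was sequenced from whole embryos labelled stage 10.5, the early gastrula. Embryos had been injected with 18 ng of a translation-blocking MOV10 morpholino (2 libraries, replicates 2 and 3) or with 18 ng of a control morpholino (3 libraries, replicates 1, 2 and 3). MOV10 is an RNA helicase known for its part in silencing by small RNAs, and a morpholino is a stable antisense oligonucleotide. Eggs came from 2 mating pairs, and 3 embryos were taken in each condition. No MOV10 library with replicate number 1 is among the libraries of the series. The series' design text calls the libraries biological replicates, and the pair behind each is not stated.

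In the textbook account of the Xenopus gastrula, bone morphogenetic protein (BMP) ligands signal through receptors and Smad proteins on the ventral side and switch on Ventx and Msx genes. The Ventx proteins are mostly repressors that keep organizer genes such as goosecoid and chordin off in ventral and lateral cells. Secreted antagonists from the dorsal organizer, chordin among them, bind BMP ligands, so that Ventx RNA is graded from ventral to dorsal. Ventx proteins have also been likened to mammalian Nanog for their part in keeping early cells uncommitted.

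The libraries held 11347400 to 11727654 gene counts with the MOV10 morpholino and 11592035 to 13515787 with the control morpholino. Levels are given as CPM, the gene count relative to the library total after TMM scaling between libraries, and 3 counts stood at 0.201 to 0.283 CPM in a library. Of 20049 gene models tested with edgeR's quasi-likelihood test, 42.1% passed an adjusted p of 0.05 (Benjamini-Hochberg, over all models tested), 24.4% as higher and 17.7% as lower with the MOV10 morpholino. Markers of other stages and tissues moved with the groups. Of 27 gene models of skeletal and heart muscle, 22 were tested and 22 were higher, and their summed level was 15557 to 17975 CPM in MOV10 libraries, against 103 to 451 CPM in control libraries. In the controls 5 of the 27 were at 0. Some tested muscle models passed the count filter only through the MOV10 libraries, such as tnnc1.S with 160 and 231 counts there and 0 in each control. For these the direction was set by the filter, so the count of 22 higher among 22 tested is not a separate result. Of 20 gastrula marker models 13 were lower and 7 did not pass, with a summed level of 867 to 1528 CPM in MOV10 libraries and 2004 to 3048 CPM in control libraries. Some of the 13 passed the count filter only through the control libraries, such as gs17.S with 18, 13 and 30 counts there and 2 and 0 in MOV10 libraries. The direction of those was likewise set by the filter. Of 6 models of multiciliated cells 4 were higher, and the 6 summed to 226 to 285 CPM in MOV10 libraries and 41.9 to 89.1 CPM in control libraries. The other 2, foxj1.L and foxj1.S, did not pass and had log2 fold changes of -0.25 and -0.43. Neuron markers (12 models, 3 tested and not past the threshold) summed to 6.52 to 11.6 CPM in MOV10 libraries and 2.48 to 3.15 CPM in control libraries, with 2 and 3 of the models at 0 in the MOV10 and control groups. Blood markers (11 models, 1 tested and not past the threshold) summed to 6.02 to 8.32 CPM in MOV10 libraries and 4.38 to 9.24 CPM in control libraries, with 4 and 5 of the models at 0 in the MOV10 and control groups. The part of these differences in the results below was not tested, and the morpholino and any difference in developmental stage cannot be told apart. In whole embryos, fewer cells of a type and less RNA per cell cannot be told apart either. RNA of the target, mov10.L, stood at 32.8 and 26.0 CPM in MOV10 libraries, against 7.03, 2.69 and 5.86 CPM in control libraries, which does not check a knockdown that acts on translation.

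The Ventx and Msx genes differed in their calls. All 4 copies of ventx1.1 and ventx1.2 and both copies of msx1 fell with the MOV10 morpholino, by 3.03 to 10.1-fold. The copies of ventx3.2 and msx2.L did not pass the test. Of the 11 models 6 fell, 3 did not pass, and 2 (ventx3.1.S and msx2.S) had too few reads to be tested, beside 17.7% of all tested models that fell. In the same 6 models both MOV10 libraries lay below every control library, as did 30.4% of all tested models; the groups did not overlap in either direction in 65.9% of them. The median log2 fold change of the 9 tested models was -1.78, and that of all tested models was 0.08. Levels of different models are not ranked here, because no transcript lengths were used here.

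**Figure D1:**
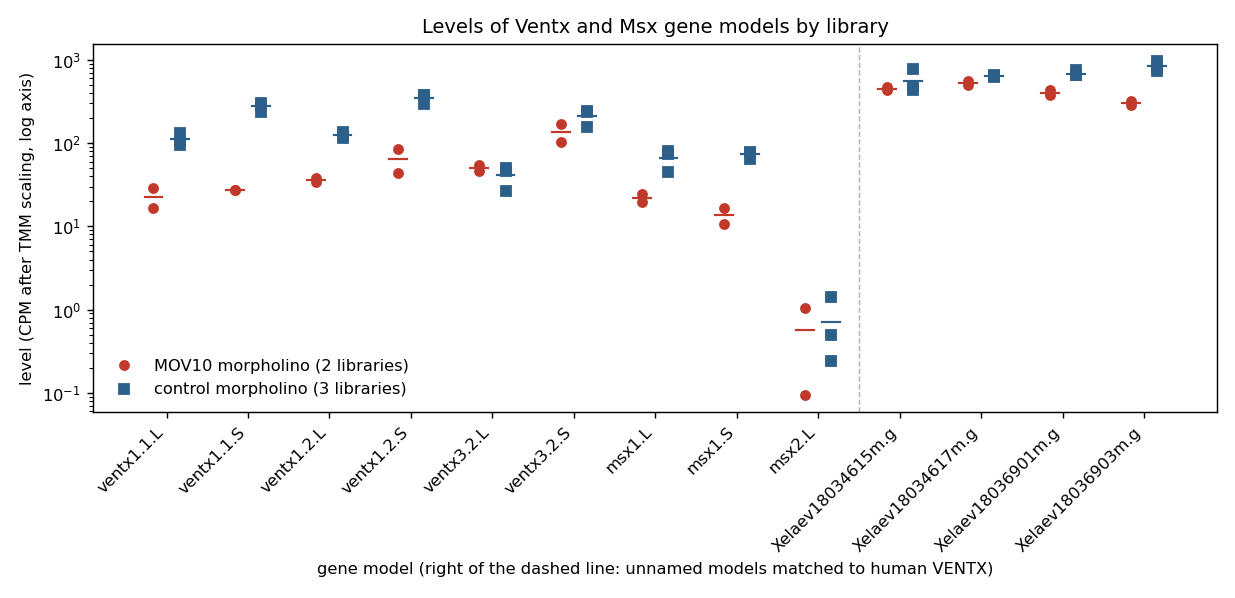
Level of each tested Ventx and Msx gene model in every library (CPM after TMM scaling, log axis), with MOV10 morpholino libraries as circles, control libraries as squares and short lines at the group means. The circles lie below all squares in ventx1.1, ventx1.2 and msx1, and their ranges overlap in ventx3.2 and msx2.L. The 4 models to the right of the dashed line have no frog symbol and are matched to human VENTX.

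The first of the ventral repressors, ventx1.1, is a direct BMP target known for repressing organizer and neural genes in Xenopus. Its S copy (Xelaev18036902m.g, chromosome 7S, 16920567 to 16923476, minus strand, Xenla9.1 build) had 27.4 and 27.3 CPM in MOV10 libraries, against 234, 285 and 306 CPM in control libraries. Those MOV10 libraries were nearly equal, and even the lowest control was several-fold above them. The mean was 27.3 ± 0.0476 CPM with the MOV10 morpholino (SD, n = 2) and 275 ± 37.2 CPM with the control morpholino (SD, n = 3). The fitted log2 fold change was -3.33 ± 0.23 (SE, edgeR adjusted p = 3.73e-05), a fall of 10.1-fold.

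The L copy of ventx1.1 (Xelaev18034616m.g, 7L, 21842291 to 21845156, minus strand) had 16.8 and 28.5 CPM in MOV10 libraries, against 132, 107 and 95.4 CPM in control libraries. The groups did not overlap, and both varied more between libraries in relative terms than did the S copy. The fall was 4.9-fold, a log2 fold change of -2.29 ± 0.30 (SE, edgeR adjusted p = 6.76e-04).

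The related gene ventx1.2, first described as Xvent-1, is likewise a BMP-activated repressor of dorsal genes. Its S copy (Xelaev18036899m.g, 7S, 16883662 to 16887492, plus strand) had 43.7 and 83.9 CPM in MOV10 libraries, against 293, 376 and 379 CPM in control libraries. All controls were high, and the MOV10 libraries, both low, differed from each other by almost their lower value. The log2 fold change was -2.45 ± 0.31 (SE, edgeR adjusted p = 5.84e-04), a fall of 5.47-fold.

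For the L copy of ventx1.2 (Xelaev18034614m.g, 7L, 21802386 to 21807247, plus strand) the levels were 34.2 and 38.2 CPM in MOV10 libraries, against 124, 115 and 134 CPM in control libraries. Replicates were close within each group and the groups were far apart. The log2 fold change was -1.78 ± 0.21 (SE, edgeR adjusted p = 4.21e-04), a fall of 3.44-fold.

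The third gene, ventx3.2, known as Xvex-1, encodes a ventral homeobox repressor of the same family. Its L copy (Xelaev18034613m.g, 7L, 21784572 to 21787885, plus strand) had 46.4 and 55.0 CPM in MOV10 libraries, against 26.6, 46.1 and 50.8 CPM in control libraries. The groups overlapped, with control replicate 1 the lowest of the 5. The log2 fold change was 0.30 ± 0.30 (SE, edgeR adjusted p = 0.453), with a 95% interval of -0.38 to 0.98, so a fall of the size seen in ventx1.2.L lay outside the interval.

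The S copy of ventx3.2 (Xelaev18036898m.g, 7S, 16870294 to 16873640, plus strand) had 102 and 170 CPM in MOV10 libraries, against 155, 238 and 243 CPM in control libraries. Control replicate 1 lay between the MOV10 libraries. The log2 fold change was -0.64 ± 0.29 (SE, edgeR adjusted p = 0.107), with a 95% interval of -1.30 to 0.018. This value sat near the threshold: it passed without control replicate 1 (-0.82, edgeR adjusted p = 0.0477), without MOV10 replicate 3 (-1.06, edgeR adjusted p = 0.0361) and with total gene counts as the scale (-0.82, edgeR adjusted p = 0.0381), and its adjusted p ranged from 0.0101 to 0.459 over 11 alternatives.

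The remaining ventx model, ventx3.1.S (Xelaev18036900m.g, 7S, 16889505 to 16895419, minus strand), was hardly measured. It had 3 and 5 counts in MOV10 libraries and 5, 3 and 28 counts in control libraries, so that control replicate 3 held most of its reads. With library size taken into account, its summed counts had a ratio of 0.412 (95% counting interval 0.165 to 0.901), and a count model was not run on it. The groups overlapped, and that interval covers counting error only and not the spread between libraries, so it does not show a fall.

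**Figure D2:**
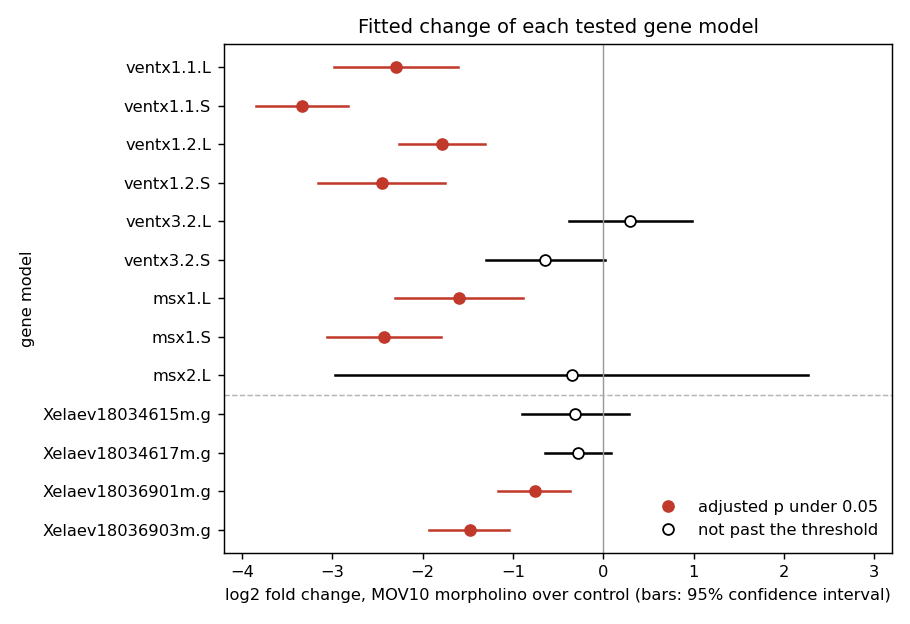
Fitted log2 fold change, MOV10 morpholino over control morpholino, of the 9 tested Ventx and Msx models and, under the dashed line, the 4 unnamed models matched to human VENTX, with bars for 95% confidence intervals. Filled points passed an adjusted p of 0.05. The 6 filled member points run from -3.33 for ventx1.1.S to -1.60 for msx1.L, and ventx3.2.L is the single point above 0.

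The difference between neighbouring Ventx genes was looked at as the log2 ratio of ventx3.2 to ventx1.2 CPM within each library, a choice made after their values were seen and so given without a test. On 7L the ratio was 0.44 and 0.52 in MOV10 libraries and -2.21, -1.31 and -1.40 in control libraries, a difference of 2.12. On 7S it was 1.22 and 1.02 in MOV10 libraries and -0.92, -0.66 and -0.64 in control libraries, a difference of 1.86. In both clusters the ratio was higher in each MOV10 library than in any control library, but how often this held over other pairs of models was not counted. The groups did not overlap in 65.9% of all single models tested. The ratio restates the changes of the 2 genes given above, and its sign carries no meaning without transcript lengths.

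The makeup of the reads on named Ventx models differed between the groups. Reads on ventx3.2 were 54.8% (95% Wilson interval 53.0 to 56.6) and 55.8% (54.3 to 57.3) of them in MOV10 libraries. In control libraries they were 18.9% (18.2 to 19.5), 24.3% (23.7 to 25.1) and 24.3% (23.6 to 25.0). These shares depend on leaving out the 4 unnamed models, which hold most reads of the clusters, at 1623 and 1741 CPM summed in MOV10 libraries, against 2783, 2867 and 2527 CPM in control libraries. With them in the total, ventx3.2 took 7.85% (95% Wilson interval 7.48 to 8.23) and 10.5% (10.1 to 10.9) in MOV10 libraries, against 4.86% (4.68 to 5.04), 7.04% (6.82 to 7.27) and 7.86% (7.61 to 8.11) in control libraries, and the groups then overlapped. The summed level of the ventx1.1 and ventx1.2 copies was 122 and 178 CPM in MOV10 libraries, against 783, 882 and 915 CPM in control libraries. That of the ventx3.2 copies was 149 and 225 CPM in MOV10 libraries, against 182, 284 and 294 CPM in control libraries, with overlap between the groups. These are shares of reads and not of molecules, the intervals cover counting error only, and the grouping was chosen after the values were seen.

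The muscle-segment homeobox gene msx1 encodes a BMP-induced repressor that is known for ventralizing mesoderm and for marking the neural plate border in frogs. Its S copy (Xelaev18008924m.g, chromosome 1S, 16681413 to 16684122, minus strand) had 16.5 and 10.8 CPM in MOV10 libraries, against 78.1, 76.3 and 65.3 CPM in control libraries. Controls were alike and the MOV10 libraries well below them. The log2 fold change was -2.43 ± 0.28 (SE, edgeR adjusted p = 3.76e-04), a fall of 5.37-fold.

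The L copy of msx1 (Xelaev18005111m.g, 1L, 18336749 to 18339715, minus strand) had 19.8 and 24.2 CPM in MOV10 libraries, against 74.5, 80.8 and 44.7 CPM in control libraries. Control replicate 3 was the lowest control and still above both MOV10 libraries. The log2 fold change was -1.60 ± 0.31 (SE, edgeR adjusted p = 0.00411), a fall of 3.03-fold.

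The related msx2 was near the limit of detection in both copies. The L copy (Xelaev18017244m.g, 3L, 35743688 to 35754298, minus strand) had 1 and 11 counts in MOV10 libraries and 21, 3 and 6 counts in control libraries, with wide overlap. Its log2 fold change of -0.35 ± 1.15 (SE, edgeR adjusted p = 0.832) had a 95% interval of -2.97 to 2.27, so a change as large as that of msx1 could not be detected at this depth. Without MOV10 replicate 2 its sign turned (0.51, edgeR adjusted p = 0.812). The S copy (Xelaev18021422m.g, 3S, 102514880 to 102525149, plus strand) was not tested. It had 0 and 3 counts in MOV10 libraries and 12, 10 and 2 counts in control libraries, where a count of 0 allows up to 0.282 CPM, and its ratio of summed counts was 0.232 (95% counting interval 0.0447 to 0.763). The groups overlapped, as MOV10 replicate 3 (0.283 CPM) lay above control replicate 3 (0.165 CPM). That interval covers counting error only and not the spread between libraries, so it does not show a fall.

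The fitted changes of the L and S copies differed in size, and this difference passed the test for ventx1.1 and ventx3.2 only. In each of the 4 pairs that could be compared, the S copy had the lower fold change, so that the log2 ratio of the L to the S copy was higher with the MOV10 morpholino by 0.74 to 1.0. The ratio was tested with limma over the 5137 L and S pairs in which both copies passed the filter, of which 25.9% passed an adjusted p of 0.05, 684 with a higher and 645 with a lower L share. The median change over all pairs was 0.025, and the quartiles were -0.80 and 0.87, so the Ventx and Msx pairs lay in the upper part of a wide distribution. For ventx3.2 the log2 ratio was -1.14 and -1.63 in MOV10 libraries, against -2.54, -2.36 and -2.25 in control libraries, a change of 1.0 ± 0.20 (SE, limma adjusted p = 0.00694). For ventx1.1 it was -0.70 and 0.063 in MOV10 libraries, against -0.83, -1.42 and -1.68 in control libraries, a change of 0.99 ± 0.30 (SE, limma adjusted p = 0.0364). In both genes the groups did not overlap, but how often this held over all pairs was not counted. The changes of ventx1.2 (0.74 ± 0.24, SE, limma adjusted p = 0.0527) and msx1 (0.88 ± 0.32, SE, limma adjusted p = 0.0726) did not pass.

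These ratio calls rested on few libraries. The call of ventx1.1 ended without MOV10 replicate 2 (1.37, limma adjusted p = 0.0623), MOV10 replicate 3 (0.61, limma adjusted p = 0.275), control replicate 2 (0.94, limma adjusted p = 0.108) or control replicate 3 (0.81, limma adjusted p = 0.129). That of ventx3.2 ended without MOV10 replicate 2 (0.76, limma adjusted p = 0.0644), while ventx1.2 passed without MOV10 replicate 3 (1.13, limma adjusted p = 0.0312).

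**Figure D3:**
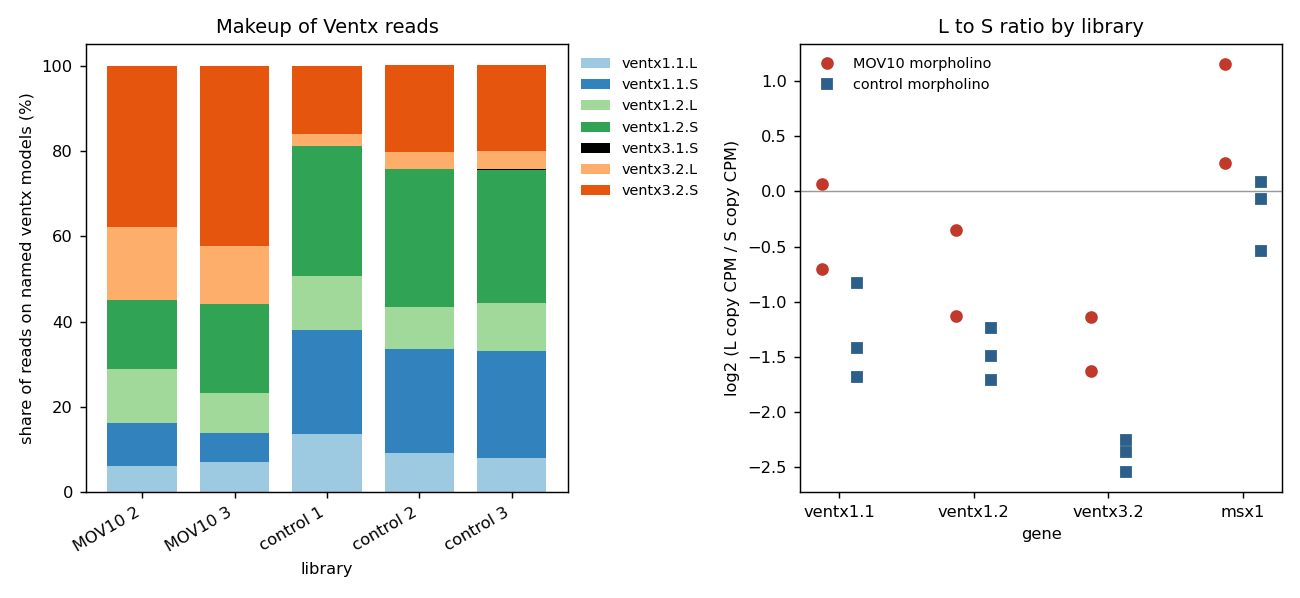
Left, share of the reads on named Ventx models that fell on each model, in percent, per library; ventx3.2 (orange) holds 54.8 and 55.8% in MOV10 libraries and 18.9 to 24.3% in control libraries. Right, log2 ratio of the L to the S copy in every library (circles, MOV10 morpholino, and squares, control). The circles lie above all squares in the 4 genes, and how often this held over all pairs was not counted. The changes of ventx1.2 and msx1 did not pass the test.

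The Ventx genes sit together. On 7L the named and unnamed models form a run of 5 models over 76.5 kb (21784572 to 21861104), and on 7S a run of 6 over 63.6 kb (16870294 to 16933936), with no model of another kind in between. On 7L, the models that fell and those that did not pass alternated: ventx3.2.L did not pass, ventx1.2.L fell, the unnamed Xelaev18034615m.g did not pass, ventx1.1.L fell and the unnamed Xelaev18034617m.g did not pass. On 7S, ventx3.2.S did not pass, ventx1.2.S fell, ventx3.1.S was not tested, and Xelaev18036901m.g, ventx1.1.S and Xelaev18036903m.g fell. The RefSeq table of the assembly Xenopus_laevis_v10.1 lists its ventx genes in the order ventx3.2, ventx1.2, ventx2.2, ventx1.1 and ventx2.1 on each of 7L and 7S, but it does not hold the deposited identifiers, and no ventx2 name was given to the unnamed ones here.

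Of the 4 unnamed models, both on 7S fell and both on 7L did not pass, beside 17.7% of all tested models that fell. Xelaev18036903m.g (7S, 16932131 to 16933936, minus strand) had 317 and 285 CPM in MOV10 libraries, against 735, 975 and 817 CPM in control libraries. Its log2 fold change was -1.48 ± 0.19 (SE, edgeR adjusted p = 6.89e-04), a fall of 2.8-fold. Xelaev18036901m.g (7S, 16908607 to 16911052, plus strand) had 374 and 429.9 CPM in MOV10 libraries, against 648, 744 and 657 CPM in control libraries. The groups were apart in both models, as they were in this direction in 30.4% of all tested models. The fall of the second was smaller, at 1.7-fold (log2 fold change -0.76 ± 0.17, SE, edgeR adjusted p = 0.00846). Its call ended without MOV10 replicate 2 (-0.68, edgeR adjusted p = 0.0558).

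On 7L, Xelaev18034615m.g (21830246 to 21832823, plus strand) had 429 and 475 CPM in MOV10 libraries, against 766, 483 and 429.7 CPM in control libraries. Control replicate 1 stood above the rest, which were alike, and the log2 fold change was -0.31 ± 0.26 (SE, edgeR adjusted p = 0.371). Xelaev18034617m.g (21859318 to 21861104, minus strand) had 503 and 551 CPM in MOV10 libraries, against 634, 665 and 623 CPM in control libraries, a log2 fold change of -0.28 ± 0.16 (SE, edgeR adjusted p = 0.195). Its groups did not overlap, as in 65.9% of all tested models in either direction, and it passed with total gene counts as the scale (-0.48, edgeR adjusted p = 0.0326). By place and strand, Xelaev18034615m.g and Xelaev18036901m.g match, both on the plus strand between ventx1.2 and ventx1.1. Xelaev18034617m.g and Xelaev18036903m.g match as well, both on the minus strand after ventx1.1. Whether the 7S models fell more than those on 7L was not tested, because the L and S pairs were formed by symbol and these models have none.

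Few models around the clusters could be tested, too few to read a direction from. Of the 20 flanking models, 5 on each side of each cluster, 7 were tested, of which 1 fell, 1 rose and 5 did not pass. Among all tested models 17.7% fell and 24.4% rose. The B-cell linker gene blnk.L had 3.01 and 4.54 CPM in MOV10 libraries, against 12.9, 10.2 and 18.0 CPM in control libraries (log2 fold change -1.86 ± 0.41, SE, edgeR adjusted p = 0.007). The glutathione transferase gene gsto1.S had 119.8 and 102 CPM in MOV10 libraries, against 12.8, 8.96 and 9.25 CPM in control libraries (3.42 ± 0.25, SE, edgeR adjusted p = 5.57e-05). Counted from the first ventx start of their cluster, blnk.L and gsto1.S start at -856 kb and at 645 kb. The tested flanking model nearest to a cluster was kndc1.L on 7L, which starts at 88.3 kb on the same count, where the cluster itself spans 76.5 kb. On 7S the nearest tested ones on either side were znf518a.S, at -584 kb on that count, and gsto1.S.

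**Figure D4:**
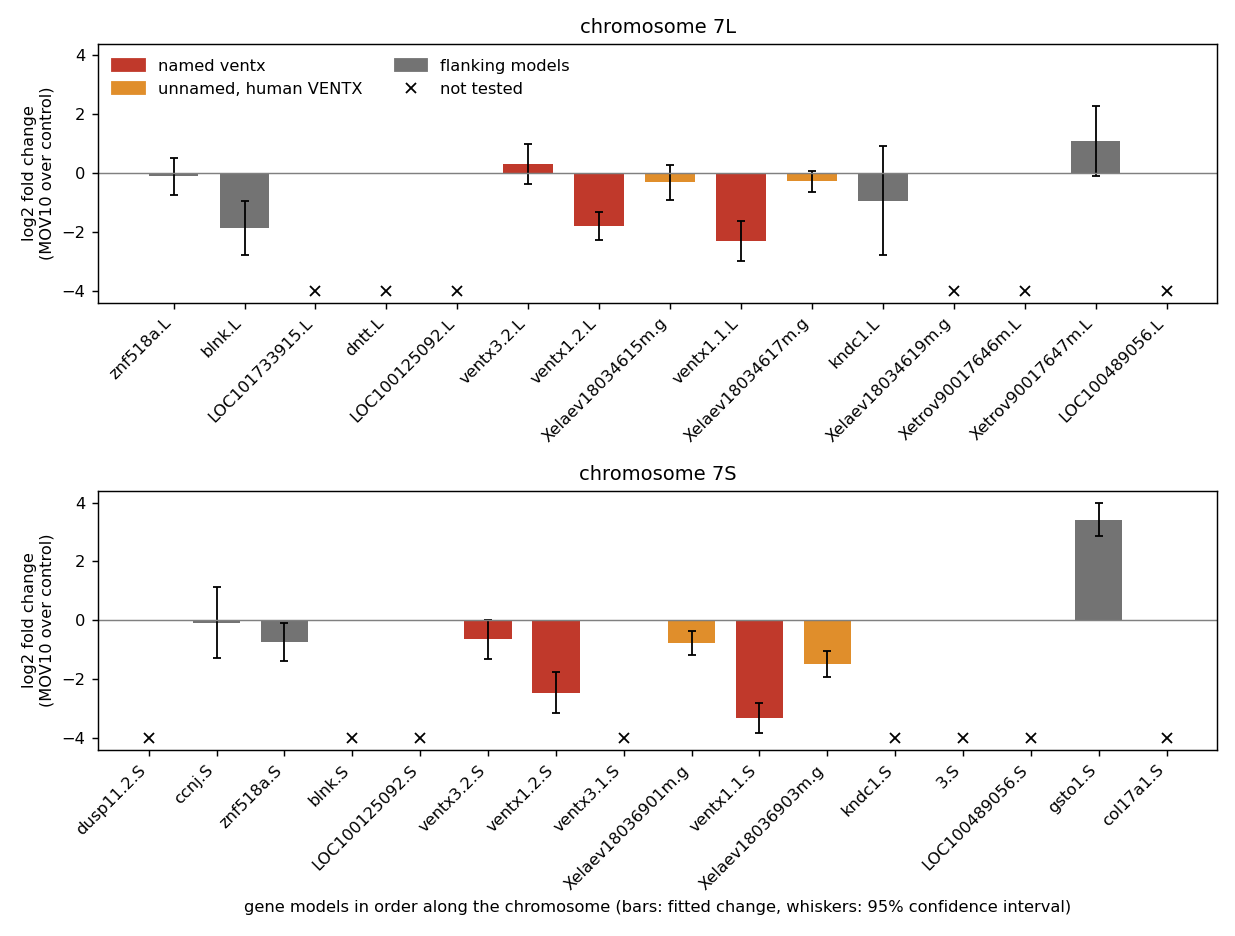
Fitted log2 fold change (bars) with 95% confidence intervals (whiskers) of gene models in their order along chromosomes 7L and 7S, for the Ventx cluster and 5 models on each side. Red bars are named ventx models, orange bars unnamed models matched to human VENTX, grey bars flanking models, and crosses at the bottom mark models not tested. Within each cluster ventx1.1 and ventx1.2 reach lowest, and gsto1.S is the flanking model that rose.

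The BMP pathway upstream of these genes was read from lists of its parts, which exclude the members. The lists here and below share models, so their shares are not independent. Copies of cer1 and nog, chrd.1.L and chrd.S are listed both as modulators and as organizer genes. Copies of szl, smad6 and smad7 are listed again among the ventral and BMP response genes. The shares given for each list stand beside 17.7% lower and 24.4% higher among all tested models. Some list models passed the count filter only through 1 group, such as bmpr2.L, which rose, and foxd4l1.2.L, which fell. For such models the direction was set by the filter, so their calls are not separate results. Of 13 tested models of BMP ligands 4 fell (30.8%), 1 rose (7.69%) and 8 did not pass, with a median log2 fold change of -0.91, and 2 rose without MOV10 replicate 2. The ligand gene bmp4.L, of the classical ventral BMP, had 57.4 and 72.5 CPM in MOV10 libraries, against 141, 193 and 132 CPM in control libraries, a fall of 2.39-fold (edgeR adjusted p = 0.00428). Its S copy, bmp4.S, had 202 and 357 CPM in MOV10 libraries, against 223, 203 and 196 CPM in control libraries, and did not pass (log2 fold change 0.43, edgeR adjusted p = 0.198). A fall of 71.6-fold was fitted for bmp7.2.L and of 4.61-fold for admp2.L, while bmp7.1.S rose 6.89-fold (log2 fold change 2.78, and 2.06 without MOV10 replicate 2). Its control mean was low, at 1.17 CPM. The L copy, bmp7.1.L, with a control mean of 18.7 CPM, did not pass and had a log2 fold change of -0.91 (edgeR adjusted p = 0.121). Of 27 receptor and Smad models 4 fell (14.8%), 5 rose (18.5%) and 18 did not pass, at a median of 0.14, shares near those of all tested models, and those that fell were 2 without control replicate 1 and 2 without control replicate 2. The activin type II receptor genes moved apart, acvr2a.L falling 5.85-fold and acvr2b rising 6.29-fold in its L copy (log2 fold change 2.65, and 2.06 without MOV10 replicate 3) and 3.17-fold in its S copy. The gene smurf2.S, for a ubiquitin ligase that acts on Smads, rose 2.02-fold.

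Secreted BMP modulators bind or process the ligands outside the cell. Of 16 tested models 11 fell (68.8%, beside 17.7% of all tested models), 1 rose (6.25%, beside 24.4%) and 4 did not pass (7 fell without control replicate 3, and 2 rose without MOV10 replicate 2), with a median log2 fold change of -1.42. The BMP antagonist chordin had 21.0 and 18.5 CPM of chrd.1.L in MOV10 libraries, against 318, 243 and 186 CPM in control libraries, a fall of 12.6-fold (edgeR adjusted p = 7.86e-05), and chrd.2.L fell 10.1-fold. Cerberus gene cer1.S fell 34.2-fold, and bmp1.S, for a protease that cleaves chordin, rose 7.46-fold. The L copy of that gene, bmp1.L, went the other way and fell 2.06-fold (edgeR adjusted p = 0.0224).

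Other ventral and BMP response genes were mixed. Of 54 tested models 21 fell (38.9%, beside 17.7% of all tested models), 5 rose (9.26%, beside 24.4%) and 28 did not pass, at a median log2 fold change of -0.77. Among those that fell were the BMP pseudoreceptor gene bambi.S (4.19-fold), the epidermal regulator tfap2a.L (6.02-fold) and the ectodermal forkhead gene foxi4.2.L (7.14-fold). The blood and vessel factor gene lmo2.S rose, with 385 counts in both MOV10 libraries together and 3 counts in all controls, a ratio of 238 (95% counting interval 80.8 to 1158). It passed the count filter only through the MOV10 libraries, so its direction was set by the filter and its rise is not a separate result. As control replicate 1 held those 3 counts, without it lmo2.S was at least 147-fold higher, against a floor of 3 counts over the remaining controls. The number that rose was 3 without control replicate 1 or with total gene counts as the scale, and 2 without control replicate 2 or without MOV10 replicate 3.

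The Ventx proteins are known to repress organizer and dorsal genes. Of 33 tested models 22 fell and 11 did not pass, 66.7% lower against 17.7% of all tested models, with a median log2 fold change of -2.12. Among those that did not pass, nog.S stood at 0.92 and otx2.L at 0.24 on the log2 fold change scale. The named members of this list were chrd.1.L and cer1.S, given above, lhx1.S, for a LIM homeobox factor of the organizer, which fell 9.94-fold, and chrd.S, which fell 6.18-fold. Goosecoid, a textbook target of Ventx repression, was looked at after its values were seen. Its S copy, gsc.S, had 10.9 and 3.12 CPM in MOV10 libraries, against 43.3, 41.3 and 33.6 CPM in control libraries (log2 fold change -2.49 ± 0.49, SE, edgeR adjusted p = 0.00435). Its L copy, gsc.L, had -0.69 ± 0.44 (SE, edgeR adjusted p = 0.245) and did not pass.

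Of 25 tested models of pluripotency and competence genes 13 fell (52.0%, beside 17.7% of all tested models), 2 rose (8.0%, beside 24.4%) and 10 did not pass, at a median log2 fold change of -1.09. The Oct4 homologs pou5f3.2.L, pou5f3.2.S and pou5f3.1.L fell 49.9, 37.6 and 5.46-fold, and the geminin gene gmnn.S fell 4.74-fold. Beside all of these lists stands the muscle signal, summed at 15557 to 17975 CPM, against 103 to 451 CPM in control libraries, and the part of that difference was not tested.

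**Figure D5:**
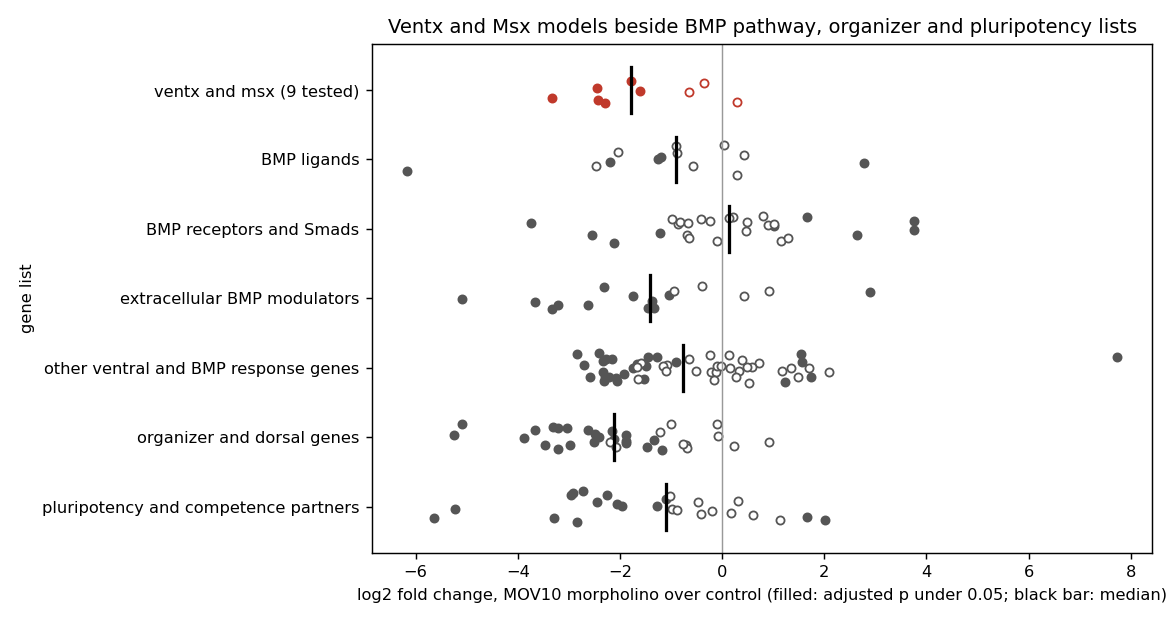
Fitted log2 fold change, MOV10 morpholino over control morpholino, of each tested model (points, filled where the adjusted p was under 0.05) and the median (black bar) for the Ventx and Msx models and 6 gene lists. The medians are -1.78 for Ventx and Msx, -2.12 for organizer and dorsal genes and 0.14 for BMP receptors and Smads.

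The genes whose profile over the 5 libraries lay nearest to the median profile of the 6 tested ventx models were searched by Euclidean distance of centred log2 CPM. They were ctdsp2.S, oip5.L, cog3.L, eif5b.L and sult1e1.L, at distances of 0.144 to 0.216. As that profile is low in MOV10 libraries, their lower levels there follow from how they were picked and are not a separate result. The ventx models themselves lay 0.349 (ventx1.2.L) to 2.64 (ventx3.2.L) from that profile, so it describes ventx1.2.L best and ventx3.2.L least. The translation initiation factor gene eif5b.L had 34.4 and 53.4 CPM in MOV10 libraries, against 168, 155 and 177 CPM in control libraries. The calls of cog3.L (log2 fold change -2.16, edgeR adjusted p = 0.0348) and ctdsp2.S (-2.08, edgeR adjusted p = 0.016) were fragile. Both were near the floor in MOV10 libraries, cog3.L at 0.376 and 0.661 CPM and ctdsp2.S at 0.753 and 1.13 CPM. The call of cog3.L ended when any one library was left out, with log2 fold changes of -2.62 to -1.82 and edgeR adjusted p-values of 0.0631 to 0.146, and that of ctdsp2.S without MOV10 replicate 2 (-1.83, edgeR adjusted p = 0.0673).

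In the authors' deposited table of their own comparison 9 of the 11 models are listed, and the same 6 that fell here have a false discovery rate under 0.05 there. That comparison used the same 5 libraries, so it is not separate support. Its false discovery rates run from 9.4e-06 for ventx1.1.S to 0.00788 for msx1.L among these 6. Of the unnamed models that fell here, the authors' deposited table gives Xelaev18036903m.g a false discovery rate of 0.00121 and Xelaev18036901m.g one of 0.124, which is above 0.05. The authors' deposited table gives ventx3.2.S a false discovery rate of 0.355 and ventx3.2.L one of 0.762. These rates cannot be set against the adjusted p-values here, because the test behind them is not stated. For Xelaev18034617m.g the log2 fold change is -0.28 in both. Its p-value from the authors' unstated test is 0.826, against an edgeR adjusted p of 0.195 here. A rate above 0.05 there thus does not contradict a call here.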

How the data were processed

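The authors deposited read counts per gene and library, in the layout of STAR with columns without strand, for the same strand and for the reverse strand. Tools named in the submitters' processing notes are STAR 2.5.2a, edgeR 3.15.2, bcl2fastq 2.17.1.14 and FastQC 0.11.4. Libraries came from a stranded TruSeq mRNA kit, per the labels' protocols. In that layout a read counts only if it maps to 1 place, so reads shared by near-identical copies are lost, and values of close Ventx copies are uncertain to that extent. The 4 summary lines, left out of library sizes and tests, held 29.8 to 40.4% unmapped, 2.02 to 5.53% multiply mapped, 48.6 to 57.1% unannotated and at most 0.00412% ambiguous reads. Positions and symbols come from the deposited annotation of Xenbase models on the Xenla9.1 build, per its legend lines.

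The deposited comparison table holds log2 values, p-values with false discovery rates and a signed fold-change score, per the file headers; the test behind it is not stated there.

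From the reverse-strand counts, edgeR 4.0.16 under R 4.3.3 gave the main results (filterByExpr, minimum count 10, TMM factors, two-sided quasi-likelihood test, group as the only term), and L to S ratios with limma 3.58.1 on log2 CPM with a prior count of 2. DESeq2 1.42.0 was an alternative. Standard errors are the log2 fold change divided by the square root of F. The fits were also run on simulated data, and the outcome is not given here. With so few libraries, not passing the test does not show that a model was unchanged. Other alternatives were scaling, filter, strand column, prior count, a block on replicate number and leaving out each library.

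The members and lists were chosen with earlier results of these data known. Named genes are all members, up to 4 models per list with the smallest adjusted p, the 5 nearest profiles, 5 flanking models per side and mov10. The labels speak of separate embryos per condition but do not tie each library to an embryo or mating pair, so p-values measure the spread between these libraries.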

Additional observations from a re-analysis of the deposited data

Results flagged for a closer look

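Reads on the strand opposite to ventx1.1.L, which enter only the alternative with counts without strand, were above the control level. They numbered 9 in MOV10 replicate 2 and 19 in MOV10 replicate 3, against 1, 0 and 0 in the control libraries. How often such counts separated the groups over all gene models was not counted. Over all libraries 29 reads lay on that strand and 4914 on the gene's own strand. The same count for ventx1.1.S was 6 and 1 in MOV10 libraries and 3, 5 and 6 in control libraries, and that for ventx3.1.S was 18 and 0 in MOV10 libraries and 0, 0 and 9 in control libraries. Over all gene models, the share of reads on the genes' own strand was 88.3 and 89.3% in MOV10 libraries and 92.1 to 93.9% in control libraries, so reads on the opposite strand were more frequent in both MOV10 libraries as a whole; the part of this in the ventx1.1.L count was not tested.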

How the results depend on the processing

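With 2 against 3 libraries the spread rests on few values, and msx2 and ventx3.1.S were limited by depth. Over 11 alternatives the falls of ventx1.1.L, ventx1.1.S, ventx1.2.L, ventx1.2.S, msx1.L and msx1.S kept their direction and stayed past the threshold, from -3.52 at the lowest (ventx1.1.S) to -1.44 at the highest (msx1.L), with adjusted p-values of up to 0.0253. Members that fell numbered 6 to 7. Total gene counts as the scale moved the median log2 fold change of all tested models to -0.12, against 0.08 with TMM, and the calls to 4358 higher and 4357 lower, against 4899 higher and 3544 lower. Leaving out 1 library gave 3718 to 4405 higher and 2654 to 3012 lower models, and 637 to 1027 called L to S pairs, against 1329 with all libraries. The sign turned for msx2.L with the replicate block (0.18) and without MOV10 replicate 2 (-2.82 to 0.51 over 4 of the 5 libraries left out, as it failed the count filter without control replicate 1), for znf518a.L without MOV10 replicate 2 (-0.34 to 0.066), and for ccnj.S with counts without strand (0.027) and without control replicate 2 (-0.24 to 0.16); none of these passed in any setting named here, and the cause was not tested.

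The replicate 2 minus replicate 3 differences of the groups had a correlation of 0.052 across 20049 genes. This cannot decide whether same-numbered libraries are paired, because replicates 2 and 3 may share a mating pair, which is not stated. The main fit did not take the numbers as pairs, as the labels state no block. With the replicate block 3098 models were lower and 4118 higher. No MOV10 library has replicate number 1, so that fit draws its group change from replicates 2 and 3. It is thus close to leaving out control replicate 1, where ventx3.2.S had a log2 fold change of -0.82, and these settings are not independent. The block brought ventx3.2.S past the threshold (-0.87, edgeR adjusted p = 0.0101), and the L to S changes of ventx1.2 (0.86, limma adjusted p = 0.00155) and msx1 (0.94, limma adjusted p = 0.0224), with 1371 pairs called. It took cog3.L out (-2.23, edgeR adjusted p = 0.121) and left 2 lower models among BMP receptors and Smads.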
